A study of Homo sapiens with 4 samples.

Results

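N6-methyladenosine (m6A) regions centred in the last coding exon of genes other than ZNF zinc finger genes were examined in H1, a cell line derived from a human embryo and kept as pluripotent stem cells. The members were taken from a deposited set of 9900 m6A regions on hg38. A region was included when the annotation placed its centre in a coding exon whose number equalled the exon count of the transcript, with at least 2 exons. Of 1008 such regions, 241 in transcripts of ZNF genes and 7 nearest to a ZNF-named start site were left out. The remaining 760 regions made up 7.68% of all regions and 39.7% of the 1913 regions centred in coding exons. The cells were wild type in every library, with no treatment other than the assay, and the series held 2 m6A pull-down libraries and 2 input libraries of total RNA, which the labels do not tie to separate cultures. The region set was deposited once for the series, so no value of a single library, no peak height and no RNA level was analysed here, and the depth of the libraries is unknown. The cell type could therefore not be checked against RNA levels of its markers, and absence of a region does not show absence of m6A. Intervals given with shares are Clopper-Pearson exact binomial limits at 95%, which cover counting error only.

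In mammalian mRNA, m6A is written during transcription by a complex built around METTL3 and METTL14 and is read by YTH domain proteins and by IGF2BP proteins, which affect the decay, stability and translation of the mRNA. It is known to be frequent in long internal exons and in the last exon, around the stop codon, while exon junction complexes keep it from the short stretches between closely spaced splice sites. Genes with long last exons therefore offer long stretches of mRNA far from a splice site. In embryonic stem cells, m6A is known to mark transcripts of many developmental and pluripotency regulators. The antibody recovers RNA fragments, so a region of about 1 kb gives the neighbourhood of a methylated base and not the base itself.

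The methyltransferase complex favours a short consensus around a GGAC core. Letters of the genome were given here only for windows of 300 bases around RefSeq start sites (GRCh38.p14), and 10 such windows overlapped 9 of the members by 100 bp or more. They are shown because they are the only stretches of these regions whose bases could be read. The motif searched was GGAC followed by any base but G, on the strand of the host gene, and 4 of the 10 overlaps held it. Of the 4 overlaps that took in all 300 bases, 1 held it, against 58.7% of 35116 start-site windows of that length on the strand of their own gene (82.3% on either strand). On the strand opposite the host all 4 held it. Of the 4, 2 were windows of 1 gene that overlap each other, and the other 2 were windows of genes on the strand opposite the host. There were 3 matches in RHOV, 2 in DSEL, 2 in JRKL and 1 in BEGAIN. Those in RHOV, which encodes a small GTPase, in BEGAIN, which encodes a protein of neuronal synapses, and in DSEL, which encodes a relative of the dermatan sulfate epimerase, are given with 1 match in capitals on each line and all other bases, neighbouring matches included, in lower case.
RHOV, chr15:40873683-40873711, minus strand: cattgagctctgGGACAcagcgggacagg
RHOV, chr15:40873673-40873701, minus strand: tgggacacagcgGGACAggtgagaagctg
RHOV, chr15:40873610-40873638, minus strand: tggaggctgggaGGACCccatatggagca
BEGAIN, chr14:100537998-100538021, minus strand: gccgcaaGGACAgcctcaccaagg
DSEL, chr18:67516529-67516557, minus strand: tgcgggtcgcggGGACCgagcgcggctga
DSEL, chr18:67516338-67516366, minus strand: cctgaggtaagcGGACTtggtggctcagg
The RHOV sequences were centred 356, 346 and 283 bp from the centre of the RHOV region (chr15:40872606-40874076), and the BEGAIN sequence 313 bp from the centre of its region (chr14:100537879-100538764). Those of DSEL were centred 2837 and 2646 bp from the centre of a much wider region (chr18:67510847-67516564). A match is a run of letters and not a mapped site, and whether it lies in the exon itself was not tested.

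The 760 regions lay in 741 protein-coding genes, with 4 regions in transcripts that did not match the RefSeq gene table. Among 19539 protein-coding genes outside the ZNF family, 3.79% held such a region, and among the 2257 of them with any exonic region 32.8% did. A single last-exon region was found in 728 of the genes, 2 in 11 genes and 3 in 2 genes. All 24 chromosomes held members, from 73 on chromosome 1 to 2 on chromosome Y.

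Transcripts of few exons made up much of the set. The same shares were not taken over all genes or other classes, so they do not set the members apart. Transcripts of 2 exons held 194 regions (25.5%), those of 3 to 5 exons 247 (32.5%), those of 6 to 10 exons 163 (21.4%) and those of 11 or more 156 (20.5%). The median was 4 exons. At the far end were KMT2D, a histone H3 lysine 4 methyltransferase, with a region of 864 bp in exon 54 of 54, and EP400, an ATPase of a chromatin remodelling complex, with 2208 bp in exon 53 of 53. The bromodomain genes BRWD1 (1397 bp, exon 41 of 41) and PHIP (829 bp, exon 40 of 40) and AGRN, which encodes the basement membrane protein agrin (1895 bp, exon 39 of 39), followed. Median widths across these classes were 1301.5, 1246, 1223 and 1218.5 bp in the order above. Over 2 kb wide were 67 of 441 regions in transcripts of 2 to 5 exons (15.2%, interval 12 to 18.9%) and 56 of 319 in transcripts of 6 or more exons (17.6%, 13.5 to 22.2%), a difference of -2.36 percentage points (Fisher's exact test, two-sided, adjusted p = 0.425, which misses the threshold of 0.05). Its sign turned when the split was put at 4 exons (0.629 points).

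**Figure D1:**
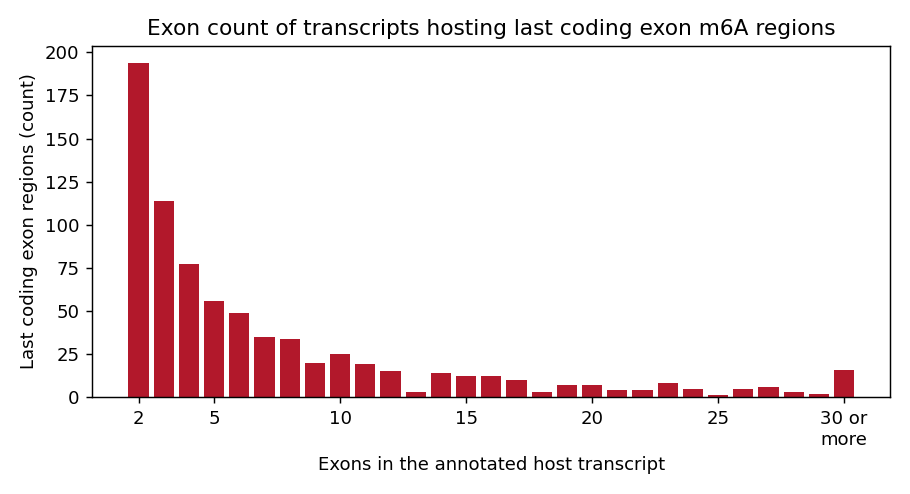
Number of last coding exon m6A regions (vertical axis, count) by the number of exons in the annotated host transcript (horizontal axis), with 30 or more exons in the last bar. The 2-exon transcripts form the tallest bar, with 194 of the 760 regions.

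The regions were compact. Their widths had a median of 1250.5 bp with quartiles of 988 and 1749.25 bp, and none was narrower than 633 or wider than 6419 bp. The widest lay in EPPK1, which encodes the cytoskeletal linker epiplakin, at chromosome 8, positions 143866869 to 143873287, in exon 2 of 2. It was followed by 5718 bp in DSEL (exon 2 of 2), 4670 bp in ZDBF2, an imprinted gene (exon 7 of 7), 4585 bp in SALL3, a zinc finger factor of development (exon 3 of 3), and 4079 bp in NRIP1, a corepressor of nuclear receptors (exon 4 of 4). The narrowest were 633 bp in the solute carrier gene SLC10A3, 647 bp in the interferon receptor gene IFNAR2, 652 bp in TCF7, a transcription factor of the WNT pathway, 662 bp in the ubiquitin ligase gene RNF19B and 718 bp in WFS1, which encodes the endoplasmic reticulum protein wolframin. Among 2-exon transcripts, PNMA3 on chromosome X held the next widest region after EPPK1 and DSEL, with 3720 bp.

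Last-exon regions were less often wide than internal coding-exon regions, and did not pass the test against those centred in 3' UTRs. Over 2 kb wide were 123 of 760 last-exon regions (16.2%, interval 13.6 to 19.0%), against 137 of 619 internal-exon regions (22.1%, 18.9 to 25.6%), a difference of -5.95 points (Fisher's exact test, two-sided, adjusted p = 0.00979). In 3' UTRs, 95 of 660 regions were over 2 kb (14.4%, 11.8 to 17.3%), and the difference of 1.79 points missed the threshold (adjusted Fisher's exact p = 0.526). With ZNF genes kept this contrast passed, at 6.1 points (adjusted Fisher's exact p = 0.00278). The contrast with internal exons did not pass at thresholds of 1500 bp (-1.67 points, adjusted Fisher's exact p = 0.748) or 1000 bp (-1.79 points, adjusted Fisher's exact p = 0.638), nor with ZNF genes kept in all classes (-0.662 points, adjusted Fisher's exact p = 1). The lengths of the exons were not held fixed.

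**Figure D2:**
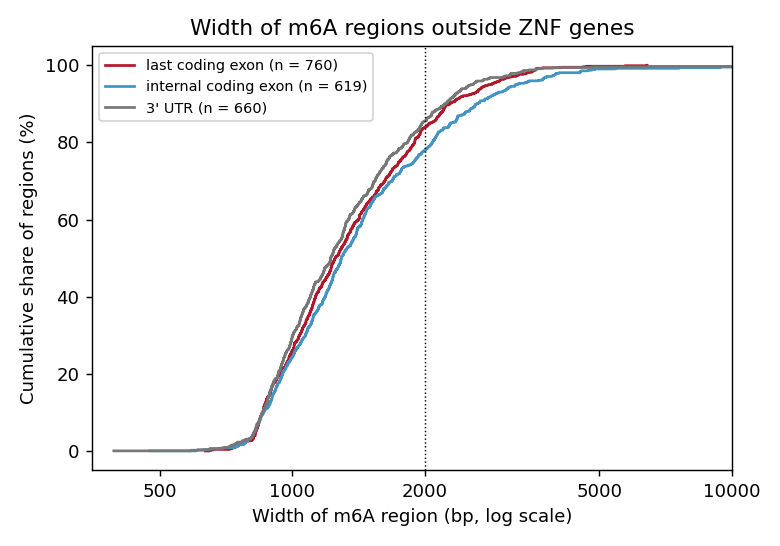
Cumulative share of regions (vertical axis, %) by width (horizontal axis, bp, log scale) for last coding exon, internal coding exon and 3' UTR regions outside ZNF genes. The dotted line marks 2000 bp, above which lay 16.2% of last-exon, 22.1% of internal-exon and 14.4% of 3' UTR regions.

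Most last-exon regions stopped short of the end of the gene. The strand of the host gene was known for 608 of them, 295 on the plus and 313 on the minus strand. The downstream edge of a region was a median of 2104 bp before the 3' end of the gene body (quartiles 766 and 4349 bp), and 7 regions ran past it, among them that of SALL3 by 272 bp. On a scale from 0 at the 5' end of the gene body to 1 at its 3' end, the centre lay beyond 0.9 in 304 regions (50%) and before 0.5 in 59. For 3' UTR regions outside ZNF genes the median distance was 1664 bp (quartiles 420 and 3750 bp). The downstream edge came within 1 kb of the gene end, or passed it, in 184 of 608 last-exon regions (30.3%, interval 26.6 to 34.1%), against 206 of 531 in 3' UTRs (38.8%, 34.6 to 43.1%). This difference of -8.53 points passed the test (Fisher's exact test, two-sided, adjusted p = 0.00533), but not at 2 kb (-6.64 points, adjusted Fisher's exact p = 0.0558) or with regions up to 2 kb wide alone (-6.44 points, adjusted Fisher's exact p = 0.0787). The gene end is that of the longest annotated extent, so stop codons and the length of the 3' UTR were not measured. Both classes were set by where the centre lies in the transcript, and coding bases come before the 3' UTR. The direction of the difference within 1 kb is therefore partly fixed by the class definitions.

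**Figure D3:**
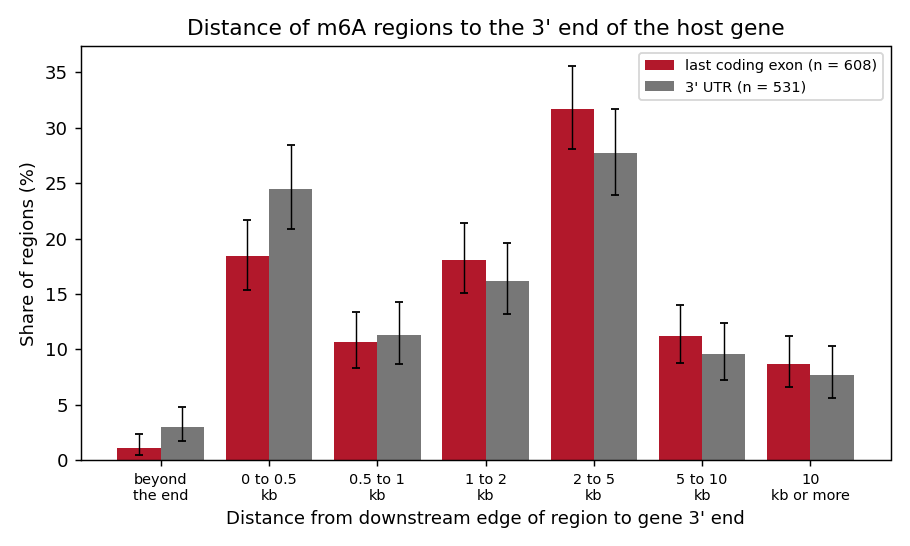
Share of regions (vertical axis, %) by the distance from the downstream edge of the region to the 3' end of its host gene (horizontal axis, 7 bins), for 608 last coding exon and 531 3' UTR regions with known strand. Bars are shares with 95% exact binomial intervals, and the 3 bins nearest to the end hold 30.3% of last-exon and 38.8% of 3' UTR regions.

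Some last-exon regions lay far upstream of the annotated gene end. Exon lengths were not measured, so a long last exon cannot be told apart here from a transcript that ends early. The centre was more than 10 kb upstream of the gene end in 57 of 608 last-exon regions (9.38%, interval 7.18 to 12%), against 42 of 531 in 3' UTRs (7.91%, 5.76 to 10.5%), a difference of 1.47 points that did not pass the test (adjusted Fisher's exact p = 0.425). The genes named in this paragraph were chosen after their values were seen. TET2, which oxidises 5-methylcytosine in DNA, held 1854 bp in exon 3 of 3 of one transcript (chromosome 4, positions 105235310 to 105237163), 42640 bp before the gene end, and 1095 bp in exon 11 of 11 of another (105275184 to 105276278), 3525 bp before it. The zinc finger gene ZFP64 held 1114 bp in exon 5 of 5, 68157 bp before its end, and 1061 bp in another exon 5 of 5, 99 bp before it. ERCC6, a DNA repair gene, held 1673 bp in exon 6 of 6 (chromosome 10, positions 49515480 to 49517152), 80599 bp before the gene end. The start site nearest to that region was not that of ERCC6 but that of PGBD3, 7965 bp away. CUX1, a homeobox gene, had 879 bp in exon 24 of 24, 34534 bp before the end. In PABPC4L, a poly(A)-binding protein gene, the region lay 251365 bp before the annotated end, with its centre at 0.0053 on the scale of the gene body.

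Several genes carried more than 1 region in a last exon. LCOR, a corepressor of nuclear receptors, had 1322, 2966 and 811 bp in exons labelled 8 of 8 on chromosome 10. The first gap was 24550 bp, the second 843 bp, and the first region was annotated to another transcript than the other two. EPPK1 held 8319 bp in all, ZDBF2 5572 bp, the amino acid transporter SLC38A10 and the helix-loop-helix factor USF3 5264 bp each, and ZBED4, a transposase-derived gene, 3104 bp. Both regions of APC, the scaffold of the beta-catenin destruction complex, were in exon 16 of 16, with 1436 bp at chromosome 5, positions 112840302 to 112841737, and 871 bp at 112843244 to 112844114. PPP1R26, a protein phosphatase regulator, and SLITRK5, a neuronal leucine-rich repeat receptor, had gaps of 819 and 1060 bp between their pairs of regions. SLC38A10 had its regions in exon 16 of 16 and exon 14 of 14. IKBIP, which encodes an interacting protein of an inflammatory kinase, had its regions in exons numbered 3 of 3, with a gap of 11407 bp between the regions.

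**Figure D4:**
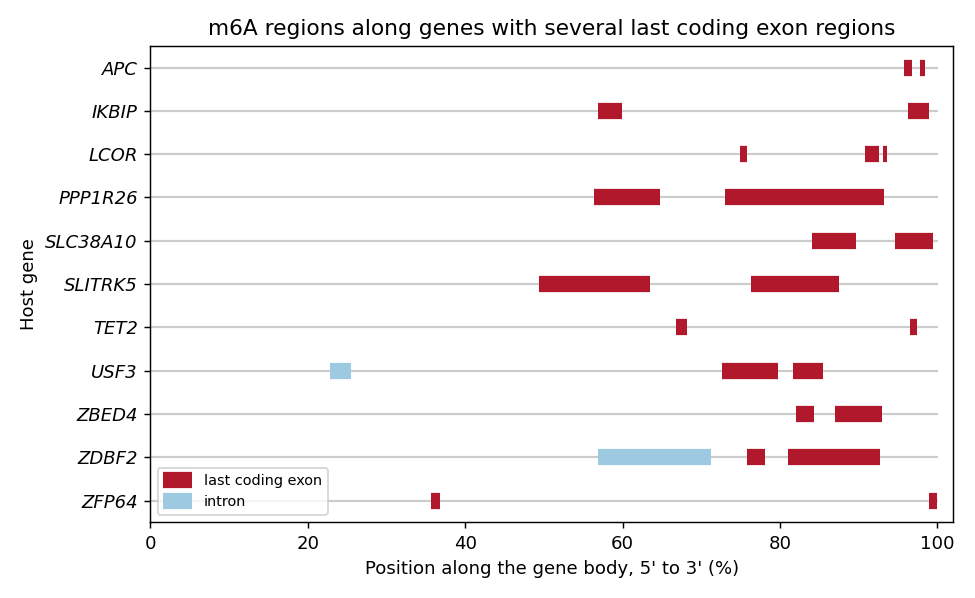
m6A regions along the bodies of 11 genes with 2 or more last coding exon regions and known strand, drawn to scale within each gene from the 5' end (0%) to the 3' end (100%). Red bars are last coding exon regions and light blue bars intronic regions of USF3 and ZDBF2. In APC, USF3, ZBED4 and ZDBF2 the last-exon regions are close neighbours, while in TET2, ZFP64 and IKBIP they are far apart.

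A last-exon region was mostly the only m6A region of its gene, and its hosts held intronic and 3' UTR regions less often than hosts of internal-exon regions. Of the 741 host genes, 207 (27.9%) held a region of another class: 129 in introns, 45 in internal coding exons, 22 at promoters, 14 in 3' UTRs and 12 in first coding exons. With genes that hosted both classes set aside, 14 of 696 last-exon hosts held a 3' UTR region (2.01%, interval 1.10 to 3.35%), against 38 of 526 internal-exon hosts (7.22%, 5.16 to 9.78%), a difference of -5.21 points (Fisher's exact test, two-sided, adjusted p = 2.41e-05). With hosts named by the nearest start site it was -2.41 points and missed the threshold (adjusted Fisher's exact p = 0.105). An intronic region was held by 115 of 696 last-exon hosts (16.5%, 13.8 to 19.5%) and by 189 of 526 internal-exon hosts (35.9%, 31.8 to 40.2%), a difference of -19.4 points (adjusted Fisher's exact p = 9.95e-14), and of -12.2 points with regions up to 2 kb wide alone (adjusted Fisher's exact p = 6.24e-07). The median gene length was 29253 bp over last-exon regions and 68554 bp over internal-exon regions, and its part in these differences was not tested. Each region counts once by its centre, so 1 region that spans a stop codon belongs to either the last coding exon or the 3' UTR and not to both.

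The genes with a last-exon region and a separate 3' UTR region included CUX2, a neuronal homeobox gene, whose regions in exon 22 of 22 were 881 bp apart, and WBP1L, with a gap of 985 bp in exon 4 of 4. In the carbohydrate sulfotransferase gene CHST3 the gap was 1130 bp in exon 3 of 3. TSC1, an inhibitor of mTOR signalling, held 864 bp in the coding part and a 3' UTR region 2375 bp away, both in exon 23 of 23. ZBTB38, a reader of methylated DNA, had such a pair in exon 8 of 8, separated by 2172 bp. These genes were chosen after their values were seen.

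Host genes were shorter than those of 3' UTR regions. With genes that held both set aside, 252 of 727 last-exon hosts had a gene body over 50 kb (34.7%, interval 31.2 to 38.2%), against 328 of 623 hosts of 3' UTR regions (52.6%, 48.6 to 56.6%), a difference of -18 points (Fisher's exact test, two-sided, adjusted p = 1.95e-10). Distances to the nearest start site were compared with internal exons. The centre lay over 10 kb from it in 416 of 760 last-exon regions (54.7%, 51.1 to 58.3%), against 428 of 619 internal-exon regions (69.1%, 65.3 to 72.8%), a difference of -14.4 points (adjusted Fisher's exact p = 1.72e-07). In transcripts of 3 or more exons alone this difference was -5.89 points. It missed the threshold after adjustment (adjusted Fisher's exact p = 0.0637, unadjusted Fisher's exact p = 0.0364). That miss depends on an adjustment that also counted the CpG island and repeat comparisons, which could not be made. Among the last-exon regions farthest from any start site were those in LINGO2, a neuronal leucine-rich repeat gene (-375738 bp from the start site of C9orf72, the minus sign marking the upstream side), NLGN4X, a neuroligin gene (-333404 bp, from a gene known by a locus number), PHLPP1, a phosphatase of AKT (263425 bp), and GLI3, a transcription factor of Hedgehog signalling (-262261 bp from the start site of INHBA).

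The nearest start site often belonged to another gene. For 314 of 756 last-exon regions (41.5%, interval 38.0 to 45.1%) it was not that of the host, against 238 of 615 internal-exon regions (38.7%, 34.8 to 42.7%) and 382 of 655 3' UTR regions (58.3%, 54.4 to 62.1%). The difference from internal exons, 2.84 points, did not pass (Fisher's exact test, two-sided, adjusted p = 0.425) and that from 3' UTRs, -16.8 points, did (adjusted Fisher's exact p = 1.15e-09). For 210 of these 314 regions the other gene was protein-coding, for 92 a non-coding RNA gene other than a snoRNA gene, for 6 a snoRNA gene and for 6 a pseudogene. The nearest start site to the KMT2D region was that of PRKAG1, to both APC regions that of SRP19, and to the region of SALL4, a pluripotency transcription factor, that of ATP9A.

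Gene lists are set beside the background of 3.79%, with no test of a list. Over all 18 lists 56 genes held a region, and 29 with hosts named by the nearest start site. Of 35 pluripotency genes, 6 held a last-exon region (17.1%, interval 6.56 to 33.6%). SALL3 and SALL4 had 4585 bp in exon 3 of 3 and 2020 bp in exon 4 of 4. L1TD1, which binds RNA in pluripotent cells, had 1280 bp in exon 5 of 5, and TRIM71, an RNA-binding ubiquitin ligase of early development, 1250 bp in exon 4 of 4. LEFTY1, a secreted inhibitor of NODAL, had 924 bp in exon 4 of 4, and GDF3 846 bp in exon 2 of 2. CD9, CRIPTO and DNMT3B held none. The median width over the 6 was 1265 bp, against 1250.5 bp over all members. OTX2, TFAP2C and IGF2BP1, which the series title names, held no last coding exon region, and none of 22 primordial germ cell genes did (upper bound 15.4%).

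Of 39 WNT genes, 8 held one (20.5%, interval 9.30 to 36.5%). The Frizzled receptors FZD5 and FZD4 had 1953 and 1632 bp in exon 2 of 2. APC2, the paralog of APC, had 3592 bp in exon 14 of 14, and AMER1, a membrane scaffold that binds APC, 3054 bp in exon 2 of 2. The beta-catenin coactivators BCL9 (1377 bp, exon 10 of 10) and PYGO2 (1347 bp, exon 3 of 3) and the transcription factor TCF7 (652 bp, exon 10 of 10) completed the count with APC. With hosts named by the nearest start site, 4 WNT genes held one. AXIN1, AXIN2 and BCL9L held none. Of 42 TGF-beta, NODAL and BMP genes, 4 did (9.52%, 2.66 to 22.6%): the ligand GDF3, the inhibitor LEFTY1, the type II receptor ACVR2B (1743 bp, exon 11 of 11) and the pseudoreceptor BAMBI (1163 bp, exon 3 of 3). Of 37 FGF and MAPK genes, 5 did (13.5%, 4.54 to 28.8%), namely the docking protein gene FRS2 (1078 bp, exon 10 of 10) and the feedback inhibitors SPRY4 (1620 bp), SPRED2 (1340 bp), SPRY1 (1293 bp) and SPRY2 (922 bp). With hosts named by the nearest start site, 3 FGF and MAPK genes did. Of 32 genes of immediate early or other short-lived mRNAs, IER2 (2140 bp), the mRNA decay factor ZFP36 (1741 bp) and MYCN (997 bp) held one, each in exon 2 of 2 (9.38%, 1.98 to 25%).

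Chromatin regulators held last-exon regions in several complexes. Of 33 nuclear receptor coregulators and corepressors, 7 held one (21.2%, interval 8.98 to 38.9%), with 2565 bp in CREBBP and 2301 bp in EP300, the paired histone acetyltransferases, both in exon 30 of 30, and 1414 bp in the corepressor CTBP2. With regions up to 2 kb wide alone, 4 of the coregulator genes held one, and with hosts named by the nearest start site 2 did. Of 41 chromatin remodelers, 7 did (17.1%, 7.15 to 32.1%), among them SRCAP (3229 bp, exon 34 of 34), the BAF subunit ARID1A (1762 bp, exon 20 of 20), CHD6 (1019 bp, exon 37 of 37) and the BAF subunit BICRA (871 bp, exon 15 of 15). With hosts named by the nearest start site, 1 remodeler gene held one. Of 38 Polycomb genes, 6 did (15.8%, 6.02 to 31.3%). The chromodomain subunits CBX2 and CBX8 of PRC1 were among them, with 1955 and 895 bp, each in exon 5 of 5. So were ASXL1 (2178 bp, exon 11 of 11) and ASXL2 (1956 bp, exon 12 of 12), of a histone H2A deubiquitinase.

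Of 47 histone lysine methylation genes, 6 held a last-exon region (12.8%, interval 4.83 to 25.7%). The genes KMT5B (2087 bp, exon 11 of 11), NSD1 (1734 bp, exon 23 of 23) and KMT2E (1551 bp, exon 26 of 26) held the most bases. With hosts named by the nearest start site, 1 of the 47 genes held one. The demethylase KDM2B had 962 bp in exon 23 of 23, 21217 bp before the gene end. Among 17 DNA methylation genes, only TET2 and TET3 held one (11.8%, 1.46 to 36.4%), and that of TET3 (1343 bp, exon 11 of 11) was 33453 bp before the gene end. By the nearest start site 1 DNA methylation gene was counted. Of 31 genes of the m6A machinery, 2 did (6.45%, 0.791 to 21.4%), CBLL1, a subunit of the methyltransferase complex, with 948 bp in exon 6 of 6, and METTL16, a separate m6A methyltransferase, with 908 bp in exon 10 of 10. ALKBH5, FMR1 and FTO held none. Genome maintenance genes held 1 in 32, a region of 2160 bp in exon 15 of 15 of the nuclease scaffold SLX4 (3.12%, 0.0791 to 16.2%), and 0 with regions up to 2 kb wide or with hosts named by the nearest start site. None of 38 cell cycle genes (upper bound 9.25%), 20 glycolysis genes, 20 mesendoderm genes or 20 fibroblast genes (upper bound 16.8% for each) held one, and neural ectoderm genes held 1 in 19, NES (1436 bp, exon 4 of 4), which encodes the intermediate filament nestin. By the nearest start site 1 cell cycle gene was counted.

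**Figure D5:**
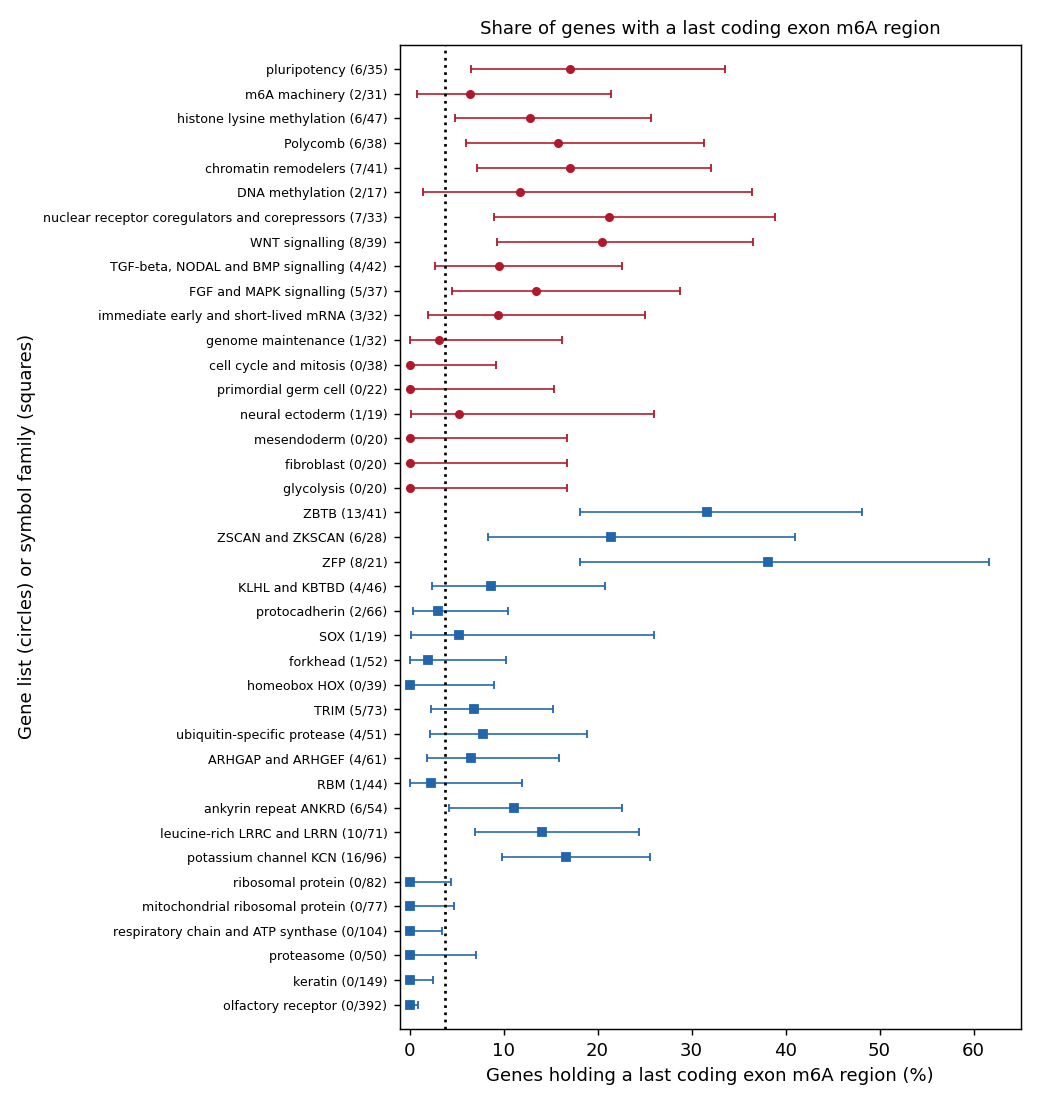
Share of genes that held a last coding exon m6A region (horizontal axis, %) for 18 gene lists (circles) and 21 families by symbol pattern (squares), with counts in the labels and 95% exact binomial intervals as bars. The dotted line is the share over all protein-coding genes outside ZNF, 3.79%. Shares of ZFP and ZBTB genes, 38.1% and 31.7%, lie farthest to the right.

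Zinc finger families named other than ZNF had the largest shares among the families listed. Of 21 ZFP genes, 8 held a last-exon region (38.1%, interval 18.1 to 61.6%), led by ZFP30 (3572 bp, exon 6 of 6), and the count includes ZFP36, whose fingers are of another type. Of 41 ZBTB genes, which join a BTB domain to zinc fingers, 13 did (31.7%, 18.1 to 48.1%), among them ZBTB39 (2206 bp), ZBTB5 (2170 bp) and ZBTB43 (1850 bp), each in exon 2 of 2. Of 28 ZSCAN and ZKSCAN genes, 6 did (21.4%, 8.30 to 41.0%), led by ZSCAN20 (2275 bp, exon 8 of 8). Without the ZBTB, ZSCAN, ZKSCAN, ZFP and protocadherin genes, 712 of the 741 host genes were left.

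Channel and leucine-rich repeat genes also held them. Potassium channel genes held a last-exon region in 16 of 96 cases (16.7%, interval 9.84 to 25.6%), among them the voltage-gated subunits KCNB2 (1818 bp, exon 3 of 3) and KCNS3 (1554 bp, exon 3 of 3). Leucine-rich LRRC and LRRN genes held one in 10 of 71 cases (14.1%, 6.97 to 24.4%), led by LRRN2 (3039 bp, exon 2 of 2), LRRN1 (3024 bp, exon 2 of 2) and LRRC8D (2625 bp, exon 3 of 3), a subunit of volume-regulated anion channels. Protocadherins were the opposite case, with 42 of 66 genes holding an exonic region but only PCDH20 (2609 bp) and PCDH1 (2403 bp) a last-exon one (3.03%, 0.369 to 10.5%), both in exon 2 of 2. SOX and forkhead genes held 1 each, SOX7 and FOXJ1, of 19 and 52. Regions in a first or only exon cannot be members by the rule, and outside ZNF genes there were 103 and 149 of them. How far exon structure sets the low shares of protocadherin, SOX and forkhead genes was not tested.

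Smaller shares were found in other families. Ankyrin repeat ANKRD genes held 6 of 54 (11.1%, interval 4.19 to 22.6%), led by ANKRD34B (1231 bp), KLHL and KBTBD genes, which encode adaptors of a ubiquitin ligase, 4 of 46 (8.70%, 2.42 to 20.8%), led by KLHL11 (1759 bp), and ubiquitin-specific proteases 4 of 51 (7.84%, 2.18 to 18.9%), led by USP38 (2694 bp). TRIM genes held 5 of 73 (6.85%, 2.26 to 15.3%), led by TRIM26 (1873 bp), ARHGAP and ARHGEF regulators of small GTPases 4 of 61 (6.56%, 1.82 to 15.9%), led by ARHGAP21 (2688 bp), and RBM genes 1 of 44, RBM12B (3119 bp). None was found among 82 ribosomal protein genes (upper bound 4.40%), 77 mitochondrial ribosomal protein genes (4.68%), 104 respiratory chain and ATP synthase genes (3.48%), 50 proteasome genes (7.11%), 39 HOX genes (9.03%), 149 keratin genes (2.45%) or 392 olfactory receptor genes (0.937%). Only for the respiratory chain, keratin and olfactory receptor families did the upper bound lie under the background of 3.79%. These families held few exonic regions of any kind, in 3 respiratory chain genes, 0 keratin genes and 1 olfactory receptor gene. Genes with a single exon cannot hold a member but were kept in the families and in the background. Their part in these shares was not tested.

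Shares were also taken among genes with an exonic region of any kind, of which 32.8% held one in the last coding exon over all genes outside ZNF. The exonic regions include those in first and only exons, which cannot be last-exon regions by the rule. These shares are descriptions with no test and no interval, and most rest on few genes. A place above or below the background is therefore not read as a result about a list or family. Genome maintenance (11.1% of 9 genes) and the m6A machinery (16.7% of 12) lay below that background, and none of 8 cell cycle genes held one. TGF-beta, NODAL and BMP genes (36.4% of 11), short-lived mRNAs (37.5% of 8) and DNA methylation genes (40% of 5) were close to it or rested on few genes. Higher shares were found for pluripotency (46.2% of 13), WNT (50% of 16), chromatin remodelers (53.8% of 13), Polycomb (54.5% of 11), FGF and MAPK (55.6% of 9) and nuclear receptor coregulators (58.3% of 12). Among the families, protocadherins (4.76% of 42), forkhead (12.5% of 8), RBM (12.5% of 8), SOX (14.3% of 7) and KLHL and KBTBD genes (23.5% of 17) lay below it. ARHGAP and ARHGEF (36.4% of 11), ubiquitin-specific proteases (40% of 10) and ANKRD genes (42.9% of 14) were nearer to it. ZSCAN and ZKSCAN (54.5% of 11), ZBTB (56.5% of 23), TRIM (71.4% of 7), ZFP (72.7% of 11), potassium channel (72.7% of 22) and LRRC and LRRN genes (76.9% of 13) lay above it.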

How the data were processed

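m6A regions of wild-type H1 cells were analysed from 1 deposited peak set of the series, made from 2 pull-down and 2 input libraries grouped by their titles. MACS2 2.2.7.1 and bedtools 2.30.0 are listed for hg38 in the submitters' processing notes, beside HOMER, HISAT2 2.2.1, Trim Galore 0.6.7 and SAMtools 1.6. Per the file names, the authors deposited an intersection of MACS2 peaks, and which peak sets were intersected is not stated there. The values are positions and distances from start sites, in bp, and the peak score was 0 in every line used.

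Host genes were found by matching the annotated transcript to a RefSeq gene table (GRCh38.p14), and gene strand from a RefSeq table of start sites. Coordinates are counted from 1. Shares were compared by Fisher's exact test (scipy 1.17.1), two-sided, with Benjamini-Hochberg adjustment over 7 planned comparisons and, separately, over 6 chosen after seeing the data. The added ones concern exon count, gene end, nearest gene and gene length. The threshold was an adjusted p of 0.05. Regions were counted as independent. The tests were tried on simulated shares. CpG islands and repeats at region centres could not be compared, since the annotation gives neither for exons (0 of 1913). Both stayed among the 7 planned comparisons in the adjustment, which raises the adjusted p of the 5 that could be made.

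The members and gene lists were chosen with earlier results of these data known. All list symbols but 1, ESRG, matched a protein-coding gene, and the families follow symbols alone. The genes named are those with several member regions, the 5 widest, narrowest, highest in exon count and farthest from a start site, the 3 widest in 2-exon transcripts, OTX2, TFAP2C and IGF2BP1, and up to 5 of each list or 3 of each family by bases covered, with up to 3 list members without a region in alphabetical order. Exceptions chosen after their values were seen are marked; BCL9, PYGO2 and the hosts of the sequences, RHOV, BEGAIN and JRKL, are exceptions too. Some genes that the rule names are not reported here. Regions were also recounted with other thresholds, widths, hosts and families.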

Additional observations from a re-analysis of the deposited data

How the results depend on the processing

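The share of regions over 2 kb in last against internal coding exons (-5.95 points) did not pass at 1500 bp (-1.67), at 1000 bp (-1.79) or with ZNF hosts kept (-0.662), and that against 3' UTRs (1.79) passed with ZNF hosts kept (6.1 points, adjusted Fisher's exact p = 0.00278). The share over 10 kb from a start site (-14.4) did not pass in transcripts of 3 or more exons (-5.89), with the comparisons that could not be made counted in the adjustment. The share of hosts with a 3' UTR region too (-5.21) did not pass with hosts named by the nearest start site (-2.41). The share with a downstream edge within 1 kb of the gene end (-8.53) did not pass at 2000 bp (-6.64) or with regions up to 2 kb (-6.44). The exon-count contrast (-2.36), not called, turned sign with a split at 4 exons (0.629). For these the cause was not tested. Of the listed genes, 56 held a last-exon region, against 29 with hosts named by the nearest start site, an alternative that assigns 314 of 756 regions to another gene. The other 41 of 51 alternatives of the main results kept direction and side of the threshold, or stayed within 1.5 times of a count. Of 36 list counts, 26 did.

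No paired analysis was possible because the deposited set holds no value of a single library, and leaving out a replicate could not be run for the same reason. Depth limits could not be given. Tests of the stop codon, exon length and peak strength were not run.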

Other observations

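A minority of last-exon regions had another region nearby. Another m6A region of any class lay within 2 kb of 43 of the 760 regions, within 5 kb of 108 and within 10 kb of 166. The same counts were not made over all regions or for other classes, so they do not set last-exon regions apart. Of the internal coding-exon regions outside ZNF genes, 131 of 619 were in the exon just before the last, the position nearest to the set described here.

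Start sites of other genes lay in or beside a few last-exon regions. In SERTAD2, a transcriptional coregulator gene, a whole start-site window of the antisense gene SERTAD2-AS1 was inside the region, and in RHOV that of a gene known only by a locus number. In METTL18, a histidine methyltransferase gene, 125 bp of the window of FIRRM overlapped the region, and in JRKL 139 bp of that of CCDC82. The region of CITED2, a transcriptional coregulator, held windows of CITED2 itself. These genes were chosen after their values were seen.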
